A study of Homo sapiens with 9 samples.

Results

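Coculture with cancer-associated fibroblasts was compared with monoculture in HeyA8 cells (Hey8A in another label), a long-established line of human ovarian cancer, when both had been kept without glutamine for the last 24 h. The comparison takes the 3 arrays whose titles name coculture and glutamine deprivation and the 3 whose titles name monoculture and glutamine deprivation, that is 6 of the 9 arrays of the study, and describes 10862 of the 18354 genes with a named probe. Per the labels' protocols HeyA8 cells were seeded on day 0, fibroblasts on inserts were added to the coculture wells on day 1, and the medium was replaced on day 4. The coculture cells had therefore shared medium with fibroblasts before glutamine was withdrawn as well as afterwards, and the comparison does not separate these periods. The remaining 3 arrays hold monoculture in complete medium and are given as a reference level. A coculture with glutamine was not analysed here. No genetic change or drug is named for any group, and the labels do not give the source of the fibroblasts. Whether arrays of a group came from separate cultures is not said in the labels, whose protocol mentions 3 cocultured wells. The p-values thus reflect only how these samples varied, and that variation may be technical.

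Glutamine gives proliferating cells nitrogen for purines, pyrimidines and other amino acids, and carbon for the tricarboxylic acid cycle. When amino acids run short, uncharged tRNAs activate a kinase that phosphorylates eIF2-alpha, and the transcription factors ATF4 and CHOP then induce transporters, synthetases and stress genes. Cells that stop dividing silence E2F target genes, which serve DNA replication, and the genes of mitosis, many of which the DREAM and MuvB-FOXM1 complexes control through a promoter element called CHR. Fibroblasts of a tumour secrete metabolites, growth factors and cytokines, and an insert lets such molecules pass while the cell layers stay apart.

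Levels are the deposited array values on a log2-like scale, on which the signal of unexpressed probes piled up at a floor near 7.4. Over all probes, the correlation within groups was between 0.996 and 0.998, and coculture arrays correlated with deprived monoculture arrays at 0.989 to 0.99. Differences are coculture minus deprived monoculture, a fold is 2 to the power of that difference, and a fold that involves a level near the floor understates the change. A gene was called, and is said to have risen or fallen, when its adjusted p in limma's test was under 0.05 (Benjamini-Hochberg over all genes tested). The arrays share nearly the same distribution of values, so all changes are relative to the other genes. In bulk RNA a change in the number of cells of a kind (such as cells in division) and a change in RNA per cell cannot be told apart.

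The labelled cell type was compared with its markers. Of the defining markers of carcinoma cells, KRT7, KRT8 and PAX8 lay well above the floor. The adhesion molecule CDH1 and the ovarian cancer antigen MUC16 lay at the floor in the arrays of all groups. Among the 10 listed markers of epithelium and ovarian carcinoma, 7 exceeded the floor in each group without glutamine and 8 with it. EPCAM, WT1 and MSLN exceeded it only slightly: coculture means were 7.64, 7.54 and 7.74, deprived monoculture means 7.56, 7.51 and 7.61. For KRT19 these means were at the floor, at 7.42 and 7.37, and for KRT18 they were 8.29 and 8.24. The mesenchymal filament gene VIM stood at 14.12 ± 0.06 (SD, n = 3) in coculture and at 14.16 ± 0.07 in deprived monoculture. Of 15 fibroblast markers, 6 passed the filter on low values, and 2 of these were higher in coculture and 1 was lower. Their summed level over all 15 ran from 115.84 to 116.05 in coculture and from 115.79 to 115.84 in deprived monoculture. In coculture 6 of the 15 lay above the floor, in deprived monoculture 3 and in complete monoculture 6, and COL1A2, COL3A1, DCN, LUM, PDGFRB and THY1 lay at or near the floor. FBLN1, a matrix protein, stood at 7.97, 7.91 and 7.91 in coculture, 7.41, 7.60 and 7.61 in deprived monoculture and 8.42, 8.32 and 8.30 in complete monoculture. Its coculture arrays lay above the deprived and below the complete monoculture, and the difference from deprived monoculture was 0.17 with the mean of its probes. FAP, a fibroblast surface protease, stood at 7.64, 7.64 and 7.67 in coculture, 7.37, 7.46 and 7.39 in deprived monoculture and 7.71, 7.96 and 7.78 in complete monoculture. The part of the fibroblasts' own RNA in these values was not tested. ACTA2, the smooth muscle actin of activated fibroblasts, was lower in coculture, at 11.14, 11.08 and 11.17 against 11.83, 11.70 and 11.66. Complete monoculture lay below both, at 10.23, 10.18 and 10.17.

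Of 10862 genes, 3022 were called (27.8%), 1380 higher in coculture (12.7%) and 1642 lower (15.1%), and the median difference of all genes was -0.01. Most of the called differences were small: their median size was 0.27, a fold of 1.20, and 2741 of them (90.7%) were under 1.5-fold. At 1.5-fold or more 191 genes rose (1.76%) and 90 fell (0.829%), and at 2-fold or more there were 65 (0.598%), of which 54 rose (0.497%) and 11 fell (0.101%). The arrays of the groups did not overlap for 39.9% of all genes tested, and 26.8% were both called and free of overlap. At 1.5-fold or more 281 genes were called (2.59%). The called share grew with level, from 4.71% of genes at 7.39 to 7.62 to 23.4% at 7.62 to 8.16. It was 39% at 8.16 to 9.27 and 44.2% at 9.27 to 14.27. Of the lists below, it was 95.7% for kinesins and spindle, 47.8% for early response, 47.1% for autophagy and 42.9% for cytokines and NF-kB. It was 30% for amino acid synthesis and transport and for glutamine enzymes, and 29.4% for ERK feedback. Below the 27.8% of all genes lay integrins and laminins (27.3%), Wnt and BMP (25%) and sterol and fatty acid synthesis (23.5%). So did glycolysis (22.2%), interferon-stimulated genes (21.1%) and JAK and STAT3 signalling (20%). Lists were not tested against genes of similar level, and they were written with earlier results of these data known. The part of the largest changes that they hold is therefore no independent support. Among 247 tested genes of 14 lists on cell division, 171 rose and 10 fell, with a median difference of 0.32, and these lists held 38 of the 54 genes that rose at least 2-fold. Among 185 tested genes of 12 lists on stress, cell death, defence and the lysosome, 89 fell and 13 rose, with a median of -0.16, and they held 6 of the 11 genes that fell at least 2-fold. Of 83 tested genes of inflammation and the early response to stimuli, 28 fell and 3 rose. Genes of matrix, adhesion, growth factors and epithelium were mixed, with 20 higher and 12 lower of 90, and of 54 genes of energy and lipid metabolism 6 rose and 10 fell.

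**Figure D1:**
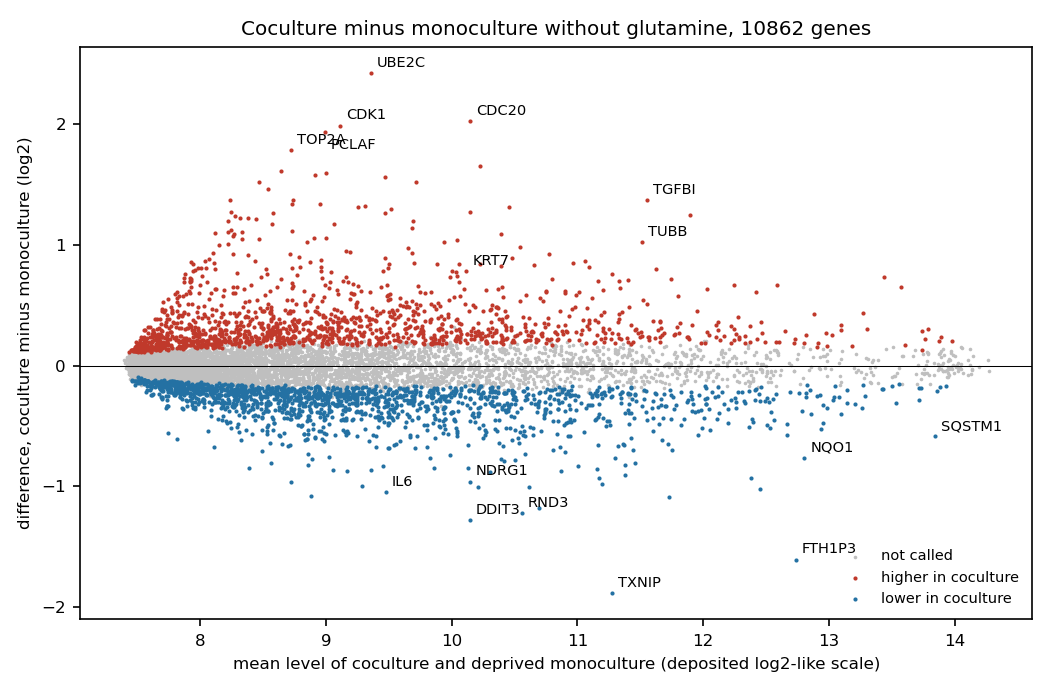
Difference of every tested gene (coculture minus deprived monoculture, log2 scale) against its mean level. The 54 genes that rose at least 2-fold outnumber the 11 that fell as far, and most called genes lie close to 0.

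**Figure D2:**
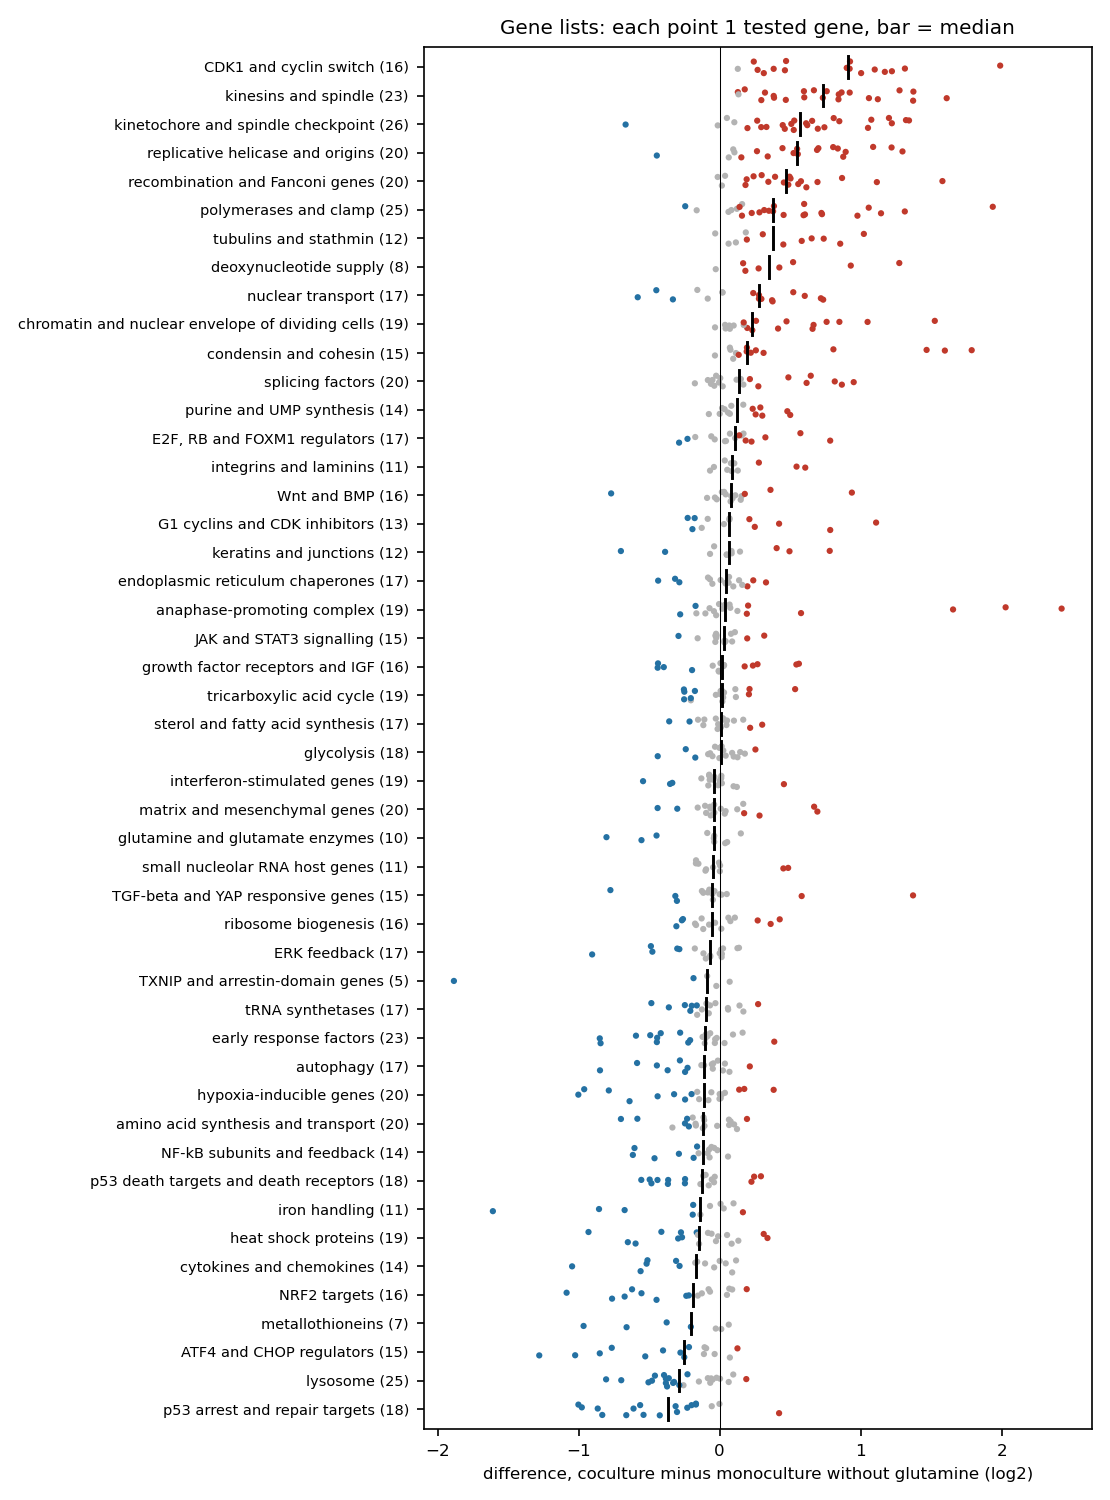
Difference (coculture minus deprived monoculture, log2 scale) of each tested gene of each list, with the number tested in brackets. Points are genes (red called higher, blue called lower, grey not called) and black bars are list medians. Lists of mitosis and DNA replication lie on the side of the rises and lists of p53 targets, lysosome and ATF4 regulators on that of the falls.

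Promoter sequences of genes that rose are shown first because mitotic and replication genes differ in the elements that their promoters are known to carry. Sequences are RefSeq's for GRCh38.p14, from 250 bases before the annotated start to 50 after it, 5′ to 3′ on the gene's strand. For 4 mitotic genes the capitals mark the CHR letters TTTGAA and the CCAAT box, on either strand. CDC20 lies on the plus strand at chr1:43358731-43359030, CDK1 on the plus strand at chr10:60778081-60778380, CCNB2 on the plus strand at chr15:59104896-59105195 and NUSAP1 on the plus strand at chr15:41332631-41332930.
CDC20: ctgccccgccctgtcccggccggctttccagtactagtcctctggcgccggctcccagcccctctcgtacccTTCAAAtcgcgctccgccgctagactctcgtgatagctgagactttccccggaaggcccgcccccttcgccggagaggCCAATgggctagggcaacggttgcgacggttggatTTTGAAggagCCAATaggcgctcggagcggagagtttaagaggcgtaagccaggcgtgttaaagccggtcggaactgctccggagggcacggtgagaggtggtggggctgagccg
CDK1: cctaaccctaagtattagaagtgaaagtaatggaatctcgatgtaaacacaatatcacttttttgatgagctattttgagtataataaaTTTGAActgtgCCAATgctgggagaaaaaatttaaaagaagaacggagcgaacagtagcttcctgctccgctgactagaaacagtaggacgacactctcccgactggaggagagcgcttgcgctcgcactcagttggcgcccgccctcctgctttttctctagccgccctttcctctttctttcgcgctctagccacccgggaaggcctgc
CCNB2: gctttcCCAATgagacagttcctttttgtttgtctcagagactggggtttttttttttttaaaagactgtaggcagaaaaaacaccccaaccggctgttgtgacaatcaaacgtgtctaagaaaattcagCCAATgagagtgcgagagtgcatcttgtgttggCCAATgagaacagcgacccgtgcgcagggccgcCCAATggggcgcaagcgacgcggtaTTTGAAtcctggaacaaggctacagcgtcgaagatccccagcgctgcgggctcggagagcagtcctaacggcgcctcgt
NUSAP1: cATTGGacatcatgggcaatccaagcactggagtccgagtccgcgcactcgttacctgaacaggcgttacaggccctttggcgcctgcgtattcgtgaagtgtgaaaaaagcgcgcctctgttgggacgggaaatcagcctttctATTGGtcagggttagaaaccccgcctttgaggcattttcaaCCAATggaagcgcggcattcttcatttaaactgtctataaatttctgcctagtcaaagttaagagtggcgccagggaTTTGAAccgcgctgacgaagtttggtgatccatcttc
For 2 replication genes the capitals mark the E2F-type letters TTTNNCGC and the CCAAT box, on either strand. MCM3 lies on the minus strand at chr6:52284693-52284992 and GINS2 on the minus strand at chr16:85688905-85689204.
MCM3: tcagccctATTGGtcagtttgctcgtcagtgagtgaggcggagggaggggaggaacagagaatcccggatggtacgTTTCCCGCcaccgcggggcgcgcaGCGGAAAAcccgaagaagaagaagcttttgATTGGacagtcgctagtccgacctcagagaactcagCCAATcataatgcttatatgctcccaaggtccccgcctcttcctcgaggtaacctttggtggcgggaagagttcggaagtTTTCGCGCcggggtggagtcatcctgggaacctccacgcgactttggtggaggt
GINS2: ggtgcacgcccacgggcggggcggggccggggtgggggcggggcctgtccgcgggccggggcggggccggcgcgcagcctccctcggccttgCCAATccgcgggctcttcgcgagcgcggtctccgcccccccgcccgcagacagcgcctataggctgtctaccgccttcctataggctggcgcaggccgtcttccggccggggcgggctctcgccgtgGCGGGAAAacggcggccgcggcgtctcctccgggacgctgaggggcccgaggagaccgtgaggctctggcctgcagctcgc
The CHR letters began at position -65 from the start of CDC20, with a further copy on the other strand at -178, at -161 in CDK1, at -29 in CCNB2 and at 14 in NUSAP1. They were found in 15.4% of all 27305 promoters and in 9.86% of those of tested genes. Among promoters of genes that rose at least 1.5-fold the share was 26.5% of 151, and among those that fell at least 1.5-fold it was 7.79% of 77. The kinesin and spindle list held them in 76.2% of 21 promoters, and the helicase list in 0 of 17. The E2F-type letters were in 6.9% of all promoters and in 10.7% of those of tested genes. They were in 58.8% of the helicase list and in 14.3% of the kinesin and spindle list. Among promoters of genes that rose at least 1.5-fold their share was 21.2%, and among those that fell it was 13%. CCAAT was in 35.7% of all promoters and in 36.9% of those of tested genes. It was in 57% of those of genes that rose at least 1.5-fold against 44.2% of those that fell. A match of letters is a description and not a measured binding site, and no such share was tested.

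The switch into mitosis is thrown by CDK1 with its cyclins, which CDC25 phosphatases activate and WEE1 and PKMYT1 restrain. Of 16 tested genes of this list 15 rose and 0 fell, with a median difference of 0.91. CDK1 stood at 10.15, 10.03 and 10.15 in coculture and 8.15, 8.15 and 8.06 in deprived monoculture, a difference of 1.99 (SE 0.066), or 3.97-fold. The coculture arrays all lay above the deprived arrays, and below the 11.86, 11.81 and 11.98 of complete monoculture. CCNB2, a mitotic cyclin, stood at 9.11, 9.16 and 9.19 against 8.01, 7.99 and 7.95 (2.25-fold), and CCNA2, the cyclin of S phase and G2, was 2.33-fold and CCNB1 2-fold higher. CKS1B, a small subunit of cyclin-dependent kinases, was 2.48-fold higher. Activators and restrainers both rose: CDC25A by 0.38, CDC25B by 0.31 and CDC25C by 0.24, and WEE1 by 0.46 and PKMYT1 by 0.27, on the log2 scale. PLK1, a mitotic kinase of the same list, was not called, with a difference of 0.13 (95% interval 0.03 to 0.23), but was in 4 of the alternatives, such as with the mean of its probes (adjusted p = 0.0216 in limma's test).

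The anaphase-promoting complex marks cyclins and securin for destruction so that chromatids can part. Of 19 tested genes 6 rose, 2 fell and 11 were not called, with a median of 0.04. The 2 that fell were the subunits CDC26 and ANAPC16, with differences of -0.28 and -0.17, and 1 fell without coculture array 1, deprived monoculture array 2 or deprived monoculture array 3. UBE2C, the ubiquitin-conjugating enzyme that serves the complex, showed the largest rise when each gene was read from its brightest probe, at 10.51, 10.61 and 10.59 against 8.13, 8.12 and 8.19, or 5.37-fold. With the mean of its probes the difference was 1.27, below the 2.03 of CDC20, since its other, dim probe differed by 0.11 and was not called (adjusted p = 0.0774 in limma's test). Complete monoculture lay higher still, at 12.34, 12.34 and 12.30. CDC20, its mitotic activator, stood at 11.33, 11.02 and 11.13 against 9.19, 9.12 and 9.08 (4.08-fold, adjusted p = 9.75e-14 in limma's test), with no overlap between the groups. PTTG1, the securin that holds separase back, stood at 11.07, 11.05 and 11.03 against 9.43, 9.30 and 9.46 (3.15-fold). PTTG3P, a pseudogene of close sequence whose probe may also detect PTTG1, was 2.95-fold higher, and the pair cannot be read as separate results. Among core subunits ANAPC1, ANAPC2, ANAPC7, CDC16 and CDC23 were not called with their brightest probes, with differences from -0.10 to 0.04. Of the other CDC16 probes, the brighter differed by -0.13 and was not called. The dimmer differed by -0.18 and was called (adjusted p = 0.0411 in limma's test of all probes above the filter).

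Kinetochores tie chromosomes to spindle fibres, and the spindle checkpoint waits until all are attached. Of 26 tested genes 22 rose and 1 fell, with a median of 0.57. MAD2L1, the checkpoint protein that inhibits CDC20, stood at 9.52, 9.64 and 9.71 against 8.44, 8.26 and 8.14 (2.54-fold). CENPW, a protein of the inner kinetochore, was 2.5-fold higher, and NDC80, which grips the microtubule, 2.33-fold. The checkpoint kinases TTK and BUB1 rose by 0.85 and 0.70. The member that fell was MAD1L1, the partner of MAD2L1, at 8.25, 8.39 and 8.45 in coculture against 9.13, 8.96 and 8.99 in deprived monoculture, a difference of -0.67 with groups that do not overlap. In complete monoculture MAD1L1 stood at 8.28, 8.29 and 8.22.

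Kinesins and other spindle proteins build and divide the spindle, and 22 of 23 tested genes rose, with a median of 0.73 and 0 lower. NUSAP1, which bundles spindle microtubules, stood at 9.60, 9.38 and 9.37 against 7.82, 7.86 and 7.84 (3.05-fold). PRC1, which holds the central spindle together, was 2.59-fold higher and HMMR, a spindle-associated hyaluronan receptor, 2.59-fold. CEP55, which acts in the final cut between daughter cells, stood at 9.27, 9.21 and 9.20 against 7.65, 7.70 and 7.76. ASPM, ANLN, KIF11, KIF2C and TPX2 rose by 1.28, 1.12, 0.86, 0.76 and 0.67. Tubulins, the building blocks of the fibres, rose for 8 of 12 members with stathmin included and fell for 0. TUBB was 2.03-fold and STMN1, which destabilises microtubules, 1.81-fold higher with its brightest probe. With the mean of its probes STMN1 differed by 0.25, and one of them, near the floor, differed by -0.10 and was not called. The near-identical TUBA1A (0.65) and TUBA1B (0.74) may share signal.

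**Figure D3:**
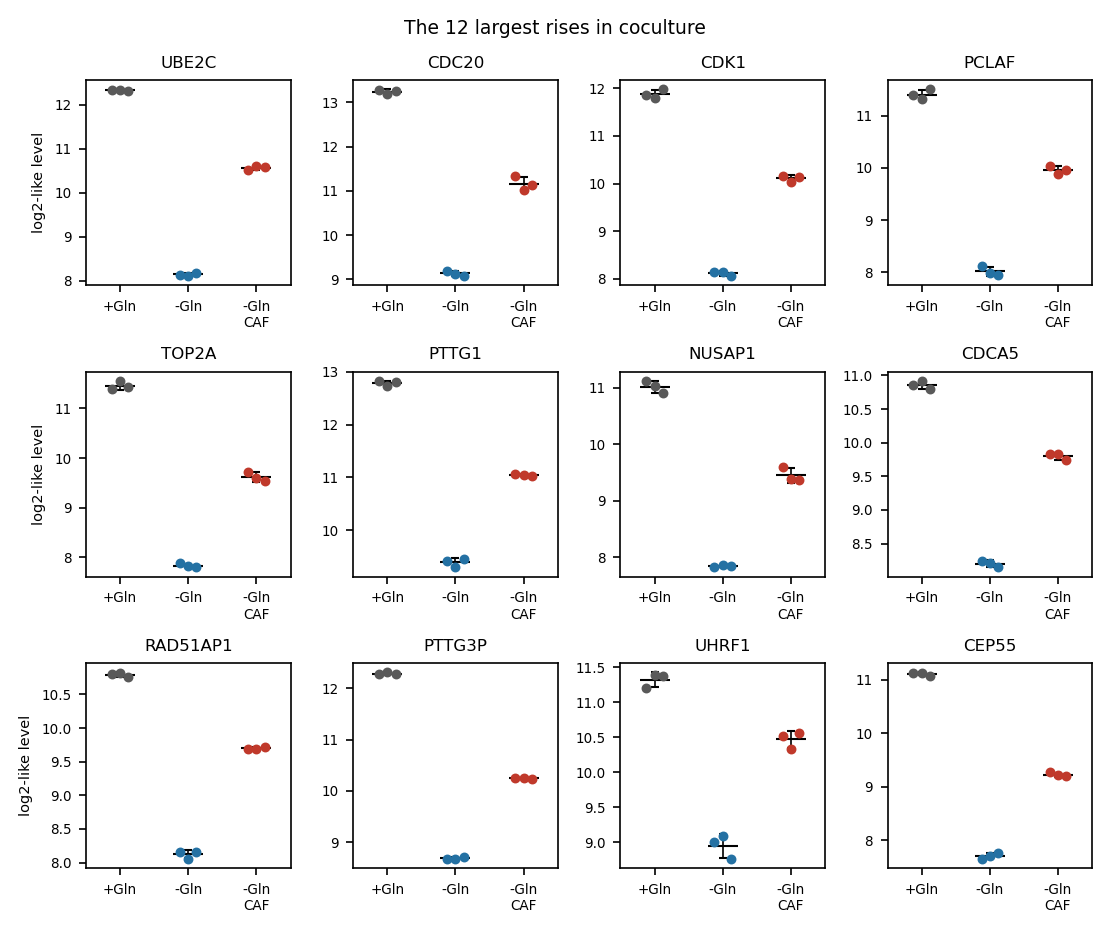
Level in each array (log2 scale) of genes with the largest rises, for complete monoculture, deprived monoculture and coculture without glutamine. Points are arrays, and lines and bars are mean and SD of 3 arrays (+Gln, complete monoculture; -Gln, deprived monoculture; CAF, with fibroblasts). For UBE2C, CDC20 and CDK1 all coculture arrays lie between the deprived and the complete monocultures.

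Condensin and cohesin fold and hold chromosomes. In this list 10 of 15 tested genes rose and 0 fell, with a median of 0.19. NCAPG, a condensin subunit, stood at 9.26, 9.31 and 9.24 against 7.84, 7.85 and 7.72 (2.77-fold), and CDCA5, the protector of cohesin known as sororin, at 9.83, 9.82 and 9.74 against 8.25, 8.22 and 8.15 (3.02-fold). Of other condensin subunits NCAPH, NCAPH2 and SMC4 were not called, at 0.07, -0.03 and 0.12. TOP2A, the topoisomerase that untangles sister chromatids, stood at 9.72, 9.59 and 9.54 against 7.88, 7.81 and 7.80 (3.45-fold). Of 19 genes of chromatin and the nuclear envelope in dividing cells, 12 rose and 0 fell, among them UHRF1, which guides maintenance of DNA methylation (2.88-fold), its partner methyltransferase DNMT1 (1.8-fold) and the histone variant H2AZ1 (1.59-fold).

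DNA replication starts where the origin recognition complex loads the MCM helicase, which CDC45 and GINS then activate. Of 20 tested genes 16 rose and 1 fell, with a median of 0.55. MCM4, a helicase subunit, stood at 10.18, 10.20 and 10.12 against 8.77, 8.81 and 9.03 (2.46-fold). Of the other subunits MCM3 rose by 0.89, MCM7 by 0.84, MCM6 by 0.52, MCM5 by 0.45 and MCM2 by 0.34. CDC45 stood at 9.09, 9.01 and 9.05 against 7.92, 7.81 and 7.77, and GINS2, whose promoter is shown above, rose by 0.80. GMNN, which blocks a second round of loading, rose as well, by 0.88. The member that fell was ORC5, a subunit of the recognition complex, with a difference of -0.45, while ORC6 and ORC3 rose by 0.55 and 0.26.

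Polymerases, primase and the clamp loader copy the DNA, and 19 of 25 tested genes rose, with a median of 0.38. PRIM1, the catalytic subunit of primase, stood at 9.90, 9.91 and 9.92 against 8.55, 8.63 and 8.62 (2.48-fold). FEN1, which trims Okazaki fragments, was 2.21-fold higher, RFC5 and RFC4 of the clamp loader 2.08-fold and 1.97-fold, and PCLAF, a protein that binds the clamp, 3.83-fold, at 10.03, 9.88 and 9.96 against 8.12, 7.99 and 7.96. The clamp itself, PCNA, went the other way, at 10.78, 10.92 and 10.81 against 11.14, 11.08 and 11.02, a difference of -0.24 with its brightest probe. With the mean of its probes the difference was -0.04 and was not called (adjusted p = 0.609 in limma's test).

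Deoxynucleotides come from ribonucleotide reductase and from thymidylate synthesis, and 7 of 8 tested genes rose. RRM1, the large reductase subunit, stood at 10.89, 10.81 and 10.64 against 9.48, 9.42 and 9.62 (2.42-fold), TK1, the salvage kinase for thymidine, was 1.91-fold and TYMS, the thymidylate synthase, 1.43-fold higher. RRM2B, the p53-inducible reductase subunit, was not called (0.00, 95% interval -0.19 to 0.19). Purine and UMP synthesis takes nitrogen from glutamine at several steps, and 6 of its 14 genes rose and 0 fell. GMPS and PFAS, which use glutamine, rose by 0.50 and 0.23. PPAT and CAD, which also use glutamine, were not called, at 0.06 and 0.03.

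Homologous recombination and the Fanconi pathway repair broken and crosslinked DNA in S phase. Of 20 tested genes 17 rose and 0 fell, with a median of 0.47. RAD51AP1, a protein of homologous recombination, stood at 9.70, 9.69 and 9.71 against 8.16, 8.05 and 8.15 (2.99-fold). UBE2T, the conjugating enzyme of the Fanconi pathway, was 2.17-fold higher, FANCG 1.82-fold, and BRCA1 rose by 0.50. CHEK1, the checkpoint kinase of stalled forks, rose by 0.58.

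Transcription factors that act on these genes were mixed. FOXM1, an activator of mitotic genes, stood at 8.34, 8.28 and 8.38 against 7.55, 7.55 and 7.54 (1.72-fold). TFDP1, the dimer partner of E2F proteins, rose by 0.57. E2F1 was not called, at 0.17 (95% interval -0.03 to 0.37), but was called without deprived monoculture array 1, at 0.30 (adjusted p = 0.0164 in limma's test). MYBL2, which joins the MuvB complex, was not called either, at -0.04 (-0.13 to 0.06). E2F7, a repressor of the family, fell by 0.29. MKI67, the gene of the proliferation antigen, rose by 0.19. Of 17 tested regulators of the E2F, RB and FOXM1 list 6 rose and 2 fell, and 3 rose with the filter at the 75th percentile. Of 13 tested G1 cyclins and inhibitors of their kinases 5 rose and 3 fell, with a median of 0.07, and 1 fell without coculture array 1, coculture array 3 or deprived monoculture array 2. CDK2 rose by 0.78 and CCNE1 by 0.25. CCND1, the cyclin D1 gene, fell by 0.19, but leaving out deprived monoculture array 2 ended that call, at -0.17 (limma's adjusted p = 0.059). CCNE2 and CDKN1A were not among the tested genes.

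Dividing cells also need nuclear transport factors, which guide spindle assembly, and splicing factors. Of 17 nuclear transport genes 10 rose and 3 fell: KPNA2, an importin-alpha, rose by 0.73 and RANBP1, a regulator of the Ran cycle, by 0.72, while the importins KPNA4 and KPNB1 fell, with differences of -0.58 and -0.45. Of 20 splicing factors 8 rose and 0 fell, with 1 lower without deprived monoculture array 1. SRSF7 stood at 9.72, 9.60 and 9.59 against 8.65, 8.64 and 8.77 (1.93-fold), and SRSF2, SRSF1, SRSF6 and SRSF3, of the same family of serine and arginine rich proteins, rose by 0.87, 0.82, 0.65 and 0.62. SRSF5 and SRSF10 of that family were not called, at -0.06 and 0.00.

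TXNIP, a thioredoxin-binding arrestin that limits glucose uptake, showed the largest fall by brightest probe. It stood at 10.27, 10.45 and 10.28 in coculture against 12.19, 12.24 and 12.22 in deprived monoculture, a difference of -1.88 (SE 0.065), or 3.69-fold lower. In complete monoculture TXNIP stood at 9.11, 9.04 and 9.14, below both. Of 5 tested genes of its list 2 fell and 0 rose, and 1 fell without coculture array 1, coculture array 2 or deprived monoculture array 1. Its relatives ARRDC2 and ARRDC3 were not called, at -0.09 and -0.02.

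Regulators of the amino acid stress response fell, while several of its enzymes were not called. Of 15 ATF4 and CHOP regulators 9 fell and 1 rose, with a median of -0.25, and 0 rose without coculture array 1 or 3 or deprived monoculture array 1 or 2. DDIT3, which encodes CHOP, stood at 9.42, 9.59 and 9.50 against 10.80, 10.80 and 10.75 (2.43-fold lower), PPP1R15A, which helps to dephosphorylate eIF2-alpha, at 11.96, 11.91 and 11.96 against 12.99, 12.95 and 12.97, and ATF3 at 7.91, 7.95 and 8.04 against 8.84, 8.83 and 8.78. TRIB3, a pseudokinase that dampens ATF4, fell by 0.77. ATF4 itself was not called with its brightest probe, at -0.04 (95% interval -0.15 to 0.07). Its probes disagreed: the next differed by -0.13 and was not called. The dimmest, with a mean level of 7.80, was higher by 0.15 (adjusted p = 0.0239 in limma's test of all probes above the filter). ASNS, the asparagine synthetase that uses glutamine, stood at 12.001, 11.93 and 11.96 against 12.22, 12.03 and 12.001 and was not called (-0.12, -0.27 to 0.03), and CHAC1 and PHGDH were not called either. Of 20 genes of amino acid synthesis and transport 5 fell and 1 rose. Without coculture array 1 these counts were 8 and 0, without deprived monoculture array 2 9 fell, and without coculture array 3 or deprived monoculture array 1 0 rose. Transporters split: SLC7A5 and its partner SLC3A2 fell, with differences of -0.70 and -0.58, while the glutamine transporters SLC1A5 (-0.17) and SLC38A2 (-0.02) were not called. SLC1A5 was called without coculture array 1, at -0.23 (adjusted p = 0.0486 in limma's test). Of 17 tRNA synthetases 6 fell and 1 rose, against 3 lower without coculture array 3 or deprived monoculture array 2, and 2 higher without deprived monoculture array 1. WARS1 and NARS1 fell, with differences of -0.48 and -0.36, and QARS1, which charges the glutamine tRNA, rose by 0.27. Of 10 tested enzymes of glutamine and glutamate metabolism 3 fell and 0 rose, with 1 higher without deprived monoculture array 2, and GOT1, the cytosolic aspartate aminotransferase, fell by 0.80. Glutamine synthetase, GLUL, lay near the floor at 7.38, 7.54 and 7.42 against 7.46, 7.48 and 7.52 and was not called (-0.04, -0.14 to 0.06).

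Targets of p53 act in arrest, repair and death. Of 18 targets of arrest and repair 15 fell and 1 rose, with a median of -0.37. GDF15, a stress cytokine, stood at 9.62, 9.73 and 9.77 against 10.81, 10.60 and 10.72 (2-fold lower), and GADD45A, a growth arrest gene, at 10.78, 10.65 and 10.69 against 11.75, 11.65 and 11.65. TP53INP1, a cofactor of p53 in stressed cells, fell by 0.86. XPC, a sensor of DNA damage, and PPM1D, a phosphatase that feeds back on p53, fell, with differences of -0.66 and -0.56. CCNG1 was the member that rose, by 0.42. Of 18 death targets and death receptors 8 fell and 3 rose. TNFRSF10B, the death receptor DR5, fell by 0.50. BAX, which opens mitochondria, and the survival factor BCL2L1 fell, with differences of -0.37 and -0.44, while BID rose by 0.24 with its brightest probe and by 0.05, not called, with the mean of its probes (adjusted p = 0.474 in limma's test). FAS, PMAIP1 and BBC3 were not called, at -0.08, -0.14 and -0.12.

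Antioxidant genes under NRF2 fell for 8 of 16 members and rose for 1, with a median of -0.19, and 0 rose without coculture array 1 or deprived monoculture array 2. TXNRD1, the thioredoxin reductase, stood at 11.20, 11.21 and 11.15 against 12.28, 12.33 and 12.21 (2.12-fold lower). NQO1, a quinone reductase, HMOX1, which degrades haem, SRXN1, which repairs peroxiredoxins, and GCLM, of glutathione synthesis, fell, with differences of -0.76, -0.67, -0.62 and -0.55. GSR and PRDX1 were not called, at -0.08 and -0.15. Of 11 genes of iron handling 5 fell and 1 rose, against 3 lower without coculture array 2, coculture array 3 or deprived monoculture array 3, and 0 higher without coculture array 1, coculture array 2 or deprived monoculture array 3. TFRC, the transferrin receptor, fell by 0.86, and FTH1P3, a ferritin pseudogene whose probe may detect ferritin heavy chain RNA, stood at 11.83, 12.07 and 11.90 against 13.62, 13.52 and 13.48. The zinc exporter SLC30A1 and the metallothionein MT1X fell, with differences of -0.97 and -0.66. Of 19 heat shock proteins 8 fell and 2 rose: the near-identical HSPA1A and HSPA1B fell, with differences of -0.93 and -0.65, which may share signal, and HSPB1 rose by 0.34.

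The lysosome degrades what autophagy and endocytosis deliver, in a lumen that the V-ATPase acidifies. Of 25 tested lysosomal genes 14 fell and 1 rose, with a median of -0.29, and 0 rose without coculture array 1 or 3 or deprived monoculture array 2. Proton pump genes made up 8 of the falls, led by ATP6V1B2, at 10.45, 10.42 and 10.50 against 11.14, 11.17 and 11.16, with ATP6AP1, ATP6V1D and ATP6V1E1 lower with differences of -0.51, -0.48 and -0.46, and ATP6V1A was not called (-0.02). NEU1, the lysosomal sialidase, fell by 0.81, and the cholesterol exporters NPC1 and NPC2 fell, with differences of -0.36 and -0.38. The hydrolases HEXA and GAA were not called, at 0.00 and 0.06. Of 17 autophagy genes 7 fell and 1 rose, and 0 rose without coculture array 1 or 2 or deprived monoculture array 1 or 3. MAP1LC3B, which coats the autophagosome, the receptor SQSTM1 and GABARAPL2 fell, with differences of -0.85, -0.59 and -0.45, while BECN1, ATG3 and ATG5 were not called.

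**Figure D4:**
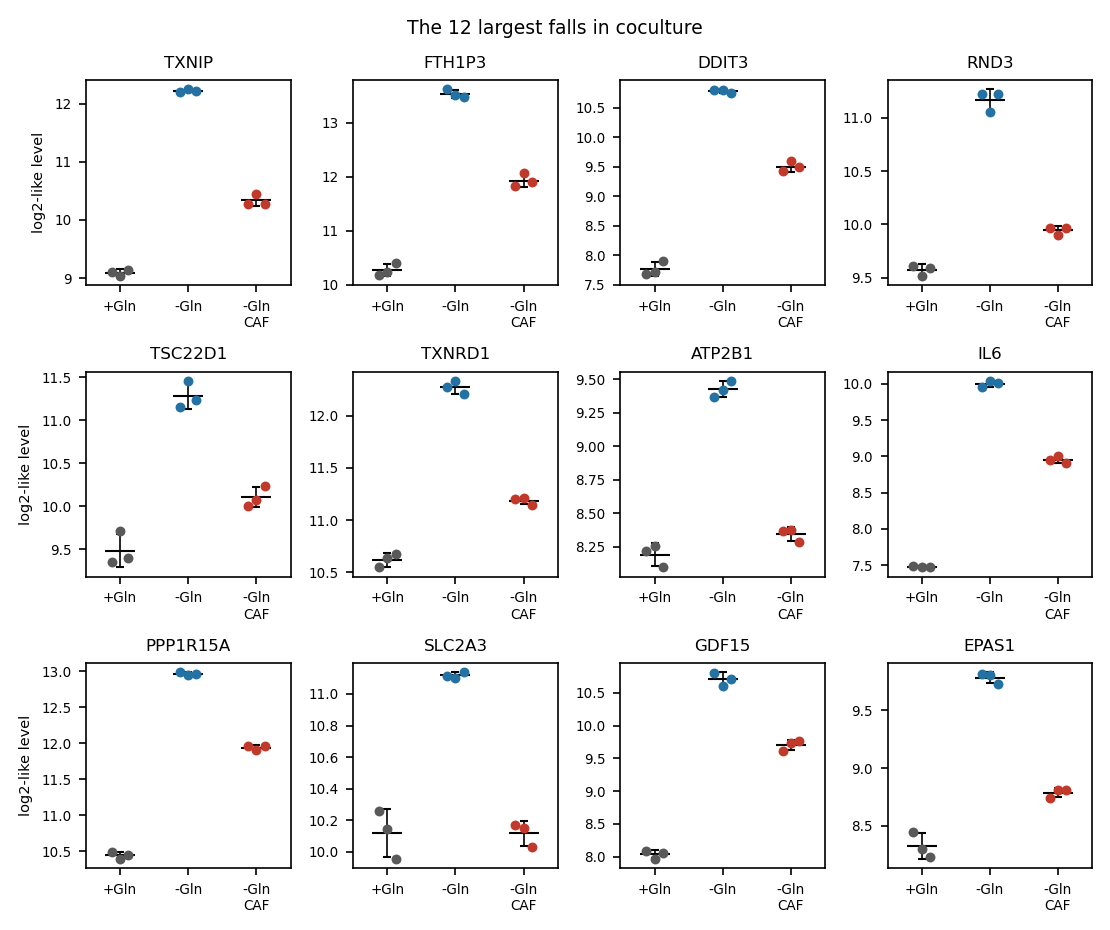
Level in each array (log2 scale) of genes with the largest falls, for the same 3 groups, with mean and SD. TXNIP, DDIT3 and TXNRD1 are lower in every coculture array than in any deprived monoculture array.

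Of 14 cytokines and chemokines 6 fell and 0 rose. IL6 stood at 8.95, 9.002 and 8.90 in coculture against 9.95, 10.03 and 10.01 in deprived monoculture (2.07-fold lower), with complete monoculture near the floor at 7.49, 7.48 and 7.47. IL24 and IL1A fell, with differences of -0.56 and -0.52, and CXCL2 was not called, at -0.04. CXCL8, the gene of interleukin 8, stood at 13.55, 13.70 and 13.47 in coculture, 13.72, 13.93 and 13.94 in deprived and 11.70, 11.41 and 11.28 in complete monoculture. It fell by 0.28 (adjusted p = 0.0197 in limma's test), and its call was lost without coculture array 1 or 3 or deprived monoculture array 2 or 3, with differences from -0.27 to -0.23. Of 14 genes of NF-kB and its feedback 6 fell and 0 rose. The subunit RELB and the mitochondrial superoxide dismutase SOD2 fell, with differences of -0.60 and -0.62, whereas NFKB1 and the inhibitor NFKBIA were not called, at 0.06 and -0.09. Of 15 tested genes of JAK and STAT3 signalling 2 rose, 1 fell and 12 were not called, and 2 fell without deprived monoculture array 3. STAT3 fell by 0.29, and JAK1 and the feedback inhibitor SOCS1 rose by 0.32 and 0.20.

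Early response factors are transcribed within minutes of a stimulus. Of 23 tested genes 10 fell and 1 rose, with a median of -0.11, and 2 rose without coculture array 3. The member that rose was BHLHE40, a transcriptional repressor, with a difference of 0.39. KLF4 stood at 9.41, 9.52 and 9.38 against 10.29, 10.29 and 10.26 (1.8-fold lower), and IER5, MYC and FOSL1 fell, with differences of -0.59, -0.44 and -0.42. FOS and JUNB were not called, at 0.03 and 0.09. Of 17 genes of ERK feedback 5 fell and 0 rose, with 1 higher without deprived monoculture array 3, led by the ERK phosphatase DUSP5 at 10.94, 10.89 and 10.94 against 11.76, 11.93 and 11.79.

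Of 15 tested genes that answer to TGF-beta and YAP 2 rose and 3 fell. TGFBI, a secreted matrix protein, rose most of these, at 12.25, 12.32 and 12.13 in coculture against 10.85, 10.83 and 10.90 in deprived monoculture (2.59-fold higher). Complete monoculture stood at 12.07, 12.01 and 11.93. CCN2 rose by 0.58, CCN1 and the decoy receptor BAMBI fell, with differences of -0.31 and -0.77, and SMAD7 and ANKRD1 were not called. Of 20 tested matrix and mesenchymal genes 4 rose and 2 fell. COL4A1, a basement membrane collagen, and PLAU, the urokinase, rose by 0.69 and 0.67, and LAMA5 and LAMB1, laminin chains, by 0.61 and 0.55, while LOX fell by 0.44. KRT7 and KRT8, keratins of simple epithelia, rose by 0.78 and 0.49, and CLDN1, a tight junction protein, fell by 0.70. Of 16 tested Wnt and BMP genes 3 rose and 1 fell. The Wnt antagonist DKK1 fell by 0.77, while SFRP1, another Wnt antagonist, rose, with differences from 0.33 to 0.39 over the alternatives. IGFBP6, which binds insulin-like growth factors, rose by 0.56, and HBEGF, a ligand of the EGF receptor, fell by 0.51.

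Some genes differed between coculture and deprived monoculture although the monocultures with and without glutamine lay within 0.25 of each other. Among called genes of at least 1.4-fold whose coculture and deprived monoculture arrays did not overlap, 15 that rose and 5 that fell met this condition. The limit of 0.25 does not mean that a gene was unchanged by glutamine withdrawal. Deprived minus complete monoculture was 0.195 for ADM, -0.234 for PLEK2 and 0.198 for ADORA2B. It was -0.216 for SRSF6 and 0.221 for CHTOP. Each of these had an adjusted p under 0.05 in limma's test. For APCDD1L, CTHRC1, PLTP, NDRG1 and UAP1 that difference did not pass the test. APCDD1L, a relative of the Wnt inhibitor APCDD1, stood at 10.46, 10.11 and 9.88 in coculture, 8.99, 9.07 and 9.57 in deprived and 9.51, 9.26 and 9.05 in complete monoculture. CTHRC1, a secreted collagen triple helix protein, stood at 11.99, 11.98 and 12.10 in coculture, 11.09, 11.31 and 11.28 in deprived and 11.43, 11.35 and 11.32 in complete monoculture. The coculture arrays of both lay above all monoculture arrays. PLTP, the phospholipid transfer protein, and PLEK2 rose by 0.65 and 0.61. On the other side NDRG1, a hypoxia-inducible gene, stood at 9.77, 9.63 and 9.58 in coculture, 10.66, 10.57 and 10.64 in deprived and 10.79, 10.57 and 10.31 in complete monoculture. ADM, the gene of the vasodilator peptide adrenomedullin, stood at 10.01, 10.001 and 10.06 in coculture, 10.83, 10.72 and 10.88 in deprived and 10.67, 10.63 and 10.54 in complete monoculture. Both were lower in coculture than in either monoculture. The adenosine receptor ADORA2B and UAP1, an enzyme of hexosamine synthesis, fell, with differences of -0.57 and -0.51. CHTOP fell as well, with a difference of -0.68. Comparisons with complete monoculture share arrays with the main comparison, so these values are set side by side only.

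**Figure D5:**
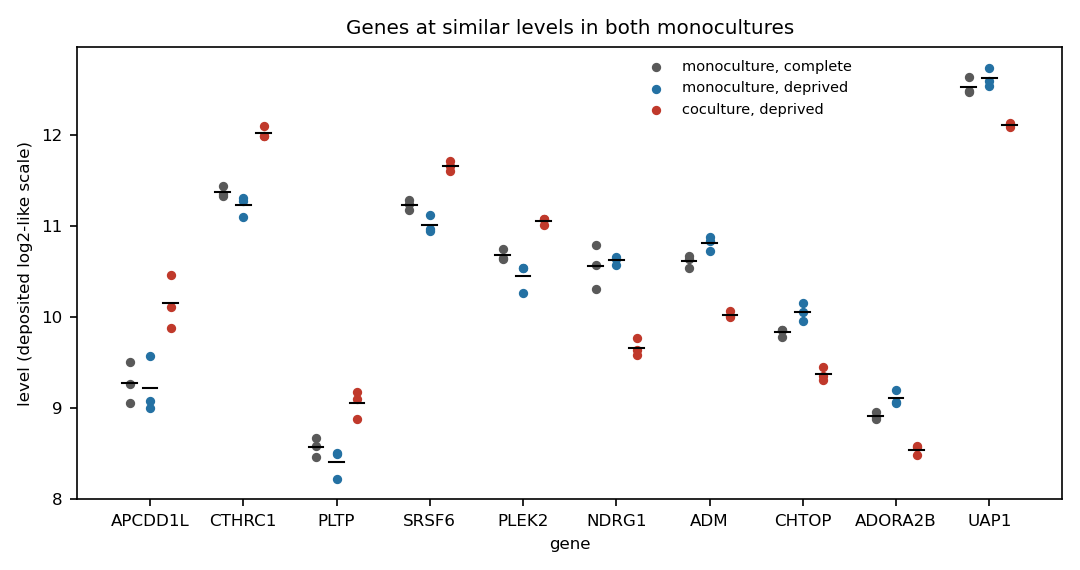
Level in each array (log2 scale) of called genes whose monocultures with and without glutamine differed by less than 0.25. Shown are the 5 largest of the 15 rises and all 5 falls that met the conditions in the text. Points are arrays and bars are group means. Coculture arrays of APCDD1L and CTHRC1 lie above, and those of NDRG1 and ADM below, the arrays of both monocultures.

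Of 20 hypoxia-inducible genes 8 fell and 3 rose, with a median of -0.11, and 1 rose without coculture array 1 or 2 or deprived monoculture array 1 or 2. Besides NDRG1 and ADM the lower genes included SLC2A3, a glucose transporter, at 10.17, 10.15 and 10.03 against 11.12, 11.10 and 11.14 (2-fold lower), and the secreted glycoprotein STC2, with a difference of -0.64. PDK1 and SLC2A1 were not called, at 0.00 and 0.00. EPAS1, which encodes HIF-2-alpha, stood at 8.74, 8.81 and 8.81 against 9.82, 9.80 and 9.73. Of 18 glycolytic genes 1 rose and 3 fell, with 1 lower without coculture array 1 and 2 higher without deprived monoculture array 1. Of 17 genes of sterol and fatty acid synthesis 2 rose and 2 fell, with 1 lower without deprived monoculture array 2. LDHA, PKM and ENO1 were not called (-0.03, -0.05 and -0.07), nor were FASN, INSIG1 and SREBF2 (-0.01, -0.03 and 0.02). HK1, a hexokinase, fell by 0.44, and SUCLG2, a subunit of succinyl-CoA ligase, rose by 0.54. Of 19 interferon-stimulated genes 1 rose and 3 fell, and IFIT1, ISG15 and OAS1 were not called, at 0.00, -0.08 and 0.01.

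Further large falls stood outside the lists. RND3 stood at 9.97, 9.90 and 9.96 in coculture against 11.22, 11.05 and 11.22 in deprived monoculture (2.33-fold lower). TSC22D1, a transcriptional regulator, stood at 10.002, 10.08 and 10.24 against 11.16, 11.46 and 11.23, and ATP2B1, a calcium pump of the plasma membrane, at 8.37, 8.38 and 8.28 against 9.37, 9.42 and 9.49. In each of these the groups do not overlap.

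Genes with several probes gave a check within the arrays. With the mean of all its probes a named gene could differ less than with its brightest probe. The difference was then 0.16 for PKMYT1, 0.20 for CDC25A, 0.45 for CDK2, 0.10 for CCNE1, 0.29 for MCM7, 0.78 for UHRF1, 0.37 for SRSF3, 0.26 for CCNG1, 0.31 for PAX8 and 0.33 for PLTP. It was -0.32 for MAD1L1, -0.21 for ORC5, -0.27 for ATF3, -0.27 for TNFRSF10B, -0.27 for BCL2L1, -0.17 for HK1 and -0.50 for ATP2B1. Each of these kept its direction and its call. Of the called genes of at least 1.5-fold, 84 had another probe above the filter, with 99 such probes in all. Of these 72 were called in the same direction, 21 had the same sign and 6 the opposite sign without a call, and 0 were called in the opposite direction.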

How the data were processed

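RNA of HeyA8 cells was profiled on Illumina bead arrays, and the authors deposited values on a log2-like scale for 34476 probes in each of 9 arrays. The lumi package was used, per the submitters' processing notes, with version, background correction and exact scale not given in the sources used here. All folds assume log2. Array medians ran from 7.4706 to 7.4731, as on a common distribution. Probes were named from the platform annotation: 26366 had 1 symbol, 3 several and 8107 none. Each of 18354 genes took its probe with the highest mean over the 9 arrays, and 10862 genes with a mean above 7.46, the median of all probe means, were tested.

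Differences were tested, two-sided, with limma 3.58.1 (lmFit, eBayes with trend) in R 4.3.3, fitting a mean for each of the 3 groups, with Benjamini-Hochberg adjustment. In data simulated for this comparison with 10862 genes, 10662 of them unchanged, 49 of 50 genes changed by 0.5 and 31 of 50 changed by 0.25 were called. A far larger share of genes was called in the measured data, so these rates may not carry over to them. The number of arrays limits the precision.

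Genes, lists and tests were chosen with earlier results of these data known. A rule named the 12 largest rises and falls, 5 each with similar monocultures, up to 4 called members of each list, the 3 brightest fibroblast markers and 20 genes whatever their values. Other named genes were chosen after their values were seen. Arrays were not paired by replicate number in the main fit. Same-numbered deprived monoculture and coculture arrays deviated together at r = -0.197, 0.101 and -0.259, and differently numbered ones at -0.186 to 0.346. Deviations from a mean of 3 arrays are tied to each other, so these values do not settle whether the numbers pair the arrays. Alternatives changed the filter, probe choice, scaling, prior, weights, block and arrays.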

Additional observations from a re-analysis of the deposited data

How the results depend on the processing

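Over 16 alternatives the number of called genes ran from 2463 to 3182 against 3022, and 0 genes were called in the opposite direction in any of them. Leaving out 1 array at a time gave 2463 to 2865 called genes, of which 1131 to 1299 were higher. The 281 genes of at least 1.5-fold were called in every alternative that tested them, except that 280 were called with the robust prior. With the replicate number as a block 2901 genes were called, 2856 of them among the 3022, and all 281 stayed called. Not every array correlated best with its own number. Of 246 named genes that were called, 225 kept call and direction in every alternative that tested them, 21 lost the call in some, and 0 reversed. Besides ANAPC16, BID, CCND1, CXCL8 and PCNA, given above, these were list members that the naming rule allows and that were not described above after their dependence on 1 array or setting was seen. Their differences were 0.22 for ACLY, 0.18 for BMPR2, 0.40 for CD9, 0.29 for GART, 0.27 for NHP2 and 0.25 for TPI1. They were -0.19 for ACO1, -0.24 for ALDOA, -0.17 for GAPDH, -0.32 for HYOU1, -0.19 for MLX, -0.20 for MT1E, -0.25 for OGDH, -0.25 for SARS1, -0.25 for SDHC and -0.21 for SQLE. The calls of ACLY, CD9, GART and TPI1 were lost with the mean of their probes alone. Those of ACO1, ALDOA, BMPR2, GAPDH, HYOU1, MLX, MT1E, NHP2, OGDH, SARS1, SDHC and SQLE were lost when 1 array was left out. Of 106 list counts 82 stayed within 1.5 times in every alternative, with a change between 0 and 1 taken as within. Detection p-values and background intensities were not used, so differences near the floor may be understated.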
